A study of Rattus norvegicus with 27 samples.

Results

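The 8 genes described here are used as markers of the claustrum or of cortical layer 6b, and they were read in medial prefrontal cortex (mPFC) tissue of 27 rats. They were the rows of the count table whose rat symbol was Nr4a2, Gnb4, Ntng2, Lxn, Synpr, Cplx3, Ccn2 or Nxph4, 8 of 36865 rows, and all 8 had a row with counts. Cartpt, the gene of the CART neuropeptide, was set beside them as a comparison gene. Their levels, the spread over rats and their mutual correlation were read as a measure of what tissue each dissected piece held.

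All 27 libraries came from adult male Wistar rats, 1 library per rat, and formed a single group with no control group. Every rat had passed through a battery of repeated anxiety tests (elevated plus-maze, open field, light-dark) and was decapitated in a resting state, and the rats were chosen for sequencing by their composite anxiety score, which was not used here. The labels name learned helplessness as the treatment of all 27 rats, they place the coronal slice further back and make it thinner than the study's methods do, and they name another library kit. The tissue was taken from both hemispheres, between the midline surface and the white matter of the forceps minor, so that anterior cingulate, prelimbic and infralimbic areas were pooled in 1 piece per rat.

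The claustrum is a thin sheet of mostly excitatory neurons between the insular cortex and the striatum, with connections to much of the cortex, and it lies lateral to the mPFC. Layer 6b is the deepest cortical layer. It borders the white matter, and part of its neurons are survivors of the embryonic subplate. Cplx3 (complexin 3, a regulator of synaptic vesicle release), Ccn2 (a secreted matricellular protein, also called CTGF) and Nxph4 (neurexophilin 4, a secreted ligand of neurexins) are widely used markers of layer 6b neurons. Nr4a2 (the nuclear receptor Nurr1), Gnb4 (a G protein beta subunit), Ntng2 (netrin-G2, a membrane-anchored synaptic adhesion protein), Lxn (latexin, a carboxypeptidase inhibitor) and Synpr (synaptoporin, a synaptic vesicle protein) are used for the claustrum, and none of these 5 is restricted to it in the cortex. Nr4a2 also marks layer 6b, and it is inducible by neuronal activity. On GRCr8, Cplx3 lies on chromosome 8 (66899438 to 66906200), Ccn2 on chromosome 1 (22621498 to 22624614) and Nxph4 on chromosome 7 (65253043 to 65261864). Nr4a2 (62098739 to 62115926) and Ntng2 (32889856 to 32949032) are on chromosome 3, Gnb4 (117289112 to 117329050), Lxn (154037604 to 154043473) and Cartpt (32989215 to 32991794) on chromosome 2, and Synpr (14003861 to 14330808) on chromosome 15.

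The promoters of Cplx3, Ccn2 and Cartpt are shown, since the results turn on the first 2 as layer 6b genes that moved together and on the comparison gene. Each run is the 250 bases before an annotated start of the gene, from RefSeq on the GRCr8 assembly, 5′ to 3′. Capitals mark a TATA box (TATAAA), a TEAD site (GGAATG, or CATTCC on the other strand) or a CRE, the cAMP response element (TGACGTCA).
Cplx3 promoter, chr8:66906201-66906450, minus strand: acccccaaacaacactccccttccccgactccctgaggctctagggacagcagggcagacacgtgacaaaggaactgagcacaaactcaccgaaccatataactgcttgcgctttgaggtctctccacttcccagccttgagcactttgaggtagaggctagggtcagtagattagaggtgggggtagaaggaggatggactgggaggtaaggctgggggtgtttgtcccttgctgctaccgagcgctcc
Ccn2 promoter, chr1:22624615-22624864, minus strand: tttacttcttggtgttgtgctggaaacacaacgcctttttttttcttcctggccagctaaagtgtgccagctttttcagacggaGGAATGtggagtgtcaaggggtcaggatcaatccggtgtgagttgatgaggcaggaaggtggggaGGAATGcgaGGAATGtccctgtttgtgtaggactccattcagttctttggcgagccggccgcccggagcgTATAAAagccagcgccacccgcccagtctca
Cartpt promoter, chr2:32991236-32991485, minus strand: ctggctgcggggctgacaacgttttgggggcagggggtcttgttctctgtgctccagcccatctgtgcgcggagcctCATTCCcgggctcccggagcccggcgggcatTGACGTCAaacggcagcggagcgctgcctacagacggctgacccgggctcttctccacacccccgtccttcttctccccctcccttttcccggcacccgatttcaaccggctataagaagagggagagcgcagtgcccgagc
The Ccn2 promoter held a TATA box 31 bases before the start and 3 TEAD sites, at 166, 101 and 92 bases before it. Ccn2 is a well-known target of the TEAD factors and their partner YAP. The Cartpt promoter held a CRE 142 bases before the start and a TEAD site on the other strand at 173 bases. The Cplx3 promoter held none of the motifs searched, and that of Lxn, not shown, a TEAD site at 98 bases. Both strands were searched, no motif contains another, and AAAGGTCA (NBRE, the response element bound by Nr4a2 as a monomer) was in none of the 8 promoters found for the 9 genes. Of 33469 RefSeq promoters of the same length, 1.59% held the CRE, 1.24% the NBRE, 12.9% the TATA box and 12.1% the TEAD site. These matches are a description of the sequence only.

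The libraries held 4907255 to 12771309 reads on genes (median 8168801), and 3 counts made up 6.11e-05% of the smallest library and 2.35e-05% of the largest, from counting error only. The library number in the labels parted the totals. The 16 libraries up to number 31 held 4907255 to 8568317 reads and the 11 from number 32 held 9404220 to 12771309, so values within both sets stand beside the main relations. The male Wistar rats of the study came from more than a single cohort, the labels do not tie cohorts to library numbers, and depth and cohort cannot be told apart in this division. The fits across all genes pooled both sets unless the set is named as a term. Some libraries stood apart from the rest. Libraries 12 and 20 had the highest 18S ribosomal RNA (19987 and 16899 normalized counts, against 5243 in the next). Library 3 had the highest summed level of 8 oligodendrocyte genes (63144 normalized counts, against a lowest of 17468 and a median of 28760) and the lowest of 3 upper-layer genes (893, median 1880). No 2 libraries were alike within counting noise (351 pairs, lowest chi-square 2.55 per gene). Markers of excitatory cortical neurons were present throughout, with the vesicular glutamate transporter Slc17a7 at 7479 to 13608 normalized counts.

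The layer 6b genes varied most between rats. Levels are read counts divided by DESeq2's size factors, so that they compare libraries for 1 gene but not 1 gene with another, since transcript length was not used. Nxph4 stood at 31.5 ± 18.1 normalized counts (SD, n = 27), with a lowest value of 8.6, a median of 29.4 and a highest of 67.7. The lowest was library 18, with 7 reads, and the highest library 43, with 101 reads, a 7.87-fold range. Cplx3 stood at 122 ± 50.6 normalized counts (SD, n = 27), from 53.3 in library 32 over a median of 118 to 214 in library 39, a 4.02-fold range. Ccn2 stood at 302 ± 89.2 normalized counts (SD, n = 27), from 178 in library 26 over a median of 282 to 468 in library 24, a 2.63-fold range. The biological coefficient of variation of these genes, edgeR's estimate of spread beyond counting, was at the 99.2nd percentile of the genes tested for Nxph4, the 97.8th for Cplx3 and the 94.4th for Ccn2.

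The claustrum markers spread less. Ntng2 stood at 245 ± 59.9 normalized counts (SD, n = 27; lowest 150, median 225, highest 369) and at the 88.8th percentile of the coefficient of variation. Nr4a2 stood at 113 ± 23.1 normalized counts (lowest 66.4, median 117, highest 146) and at the 81.8th percentile. Gnb4 stood at 133 ± 24.9 normalized counts (lowest 59.6, median 134, highest 174) and at the 77th percentile. Its lowest value was library 3, and the next was 95.9 in library 19. Synpr stood at 1602 ± 243 normalized counts (lowest 1170, median 1608, highest 2090) and at the 67.6th percentile. Lxn had the least spread of the 8, at 211 ± 27.9 normalized counts (lowest 146, median 207, highest 266) and the 56.4th percentile.

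Cartpt spread further than any of the 8 genes. It stood at 56.1 ± 63.5 normalized counts (SD, n = 27), from 3.14 in library 15, which rested on 2 reads, over a median of 29.5 to 222 in library 51, which rested on 269 reads. Its SD on the log2 scale was 1.69, against 0.90 for Nxph4, 0.62 for Cplx3, 0.44 for Ccn2 and 0.20 to 0.35 for the other 5. The libraries with the most Cartpt, numbers 51, 9 and 24, had 66.1, 192 and 77.8 normalized counts of Cplx3, so high Cartpt was found at both ends of the Cplx3 range. All 8 genes and Cartpt varied by more than counting allows (chi-square dispersion test, Benjamini-Hochberg over 11730 genes), as did 89.8% of the genes tested. Counting made up 2.78% of the variance of Synpr, 3.9 to 9.92% for the layer 6b genes and 27.8% for Lxn, the gene with the largest counting share.

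**Figure D1:**
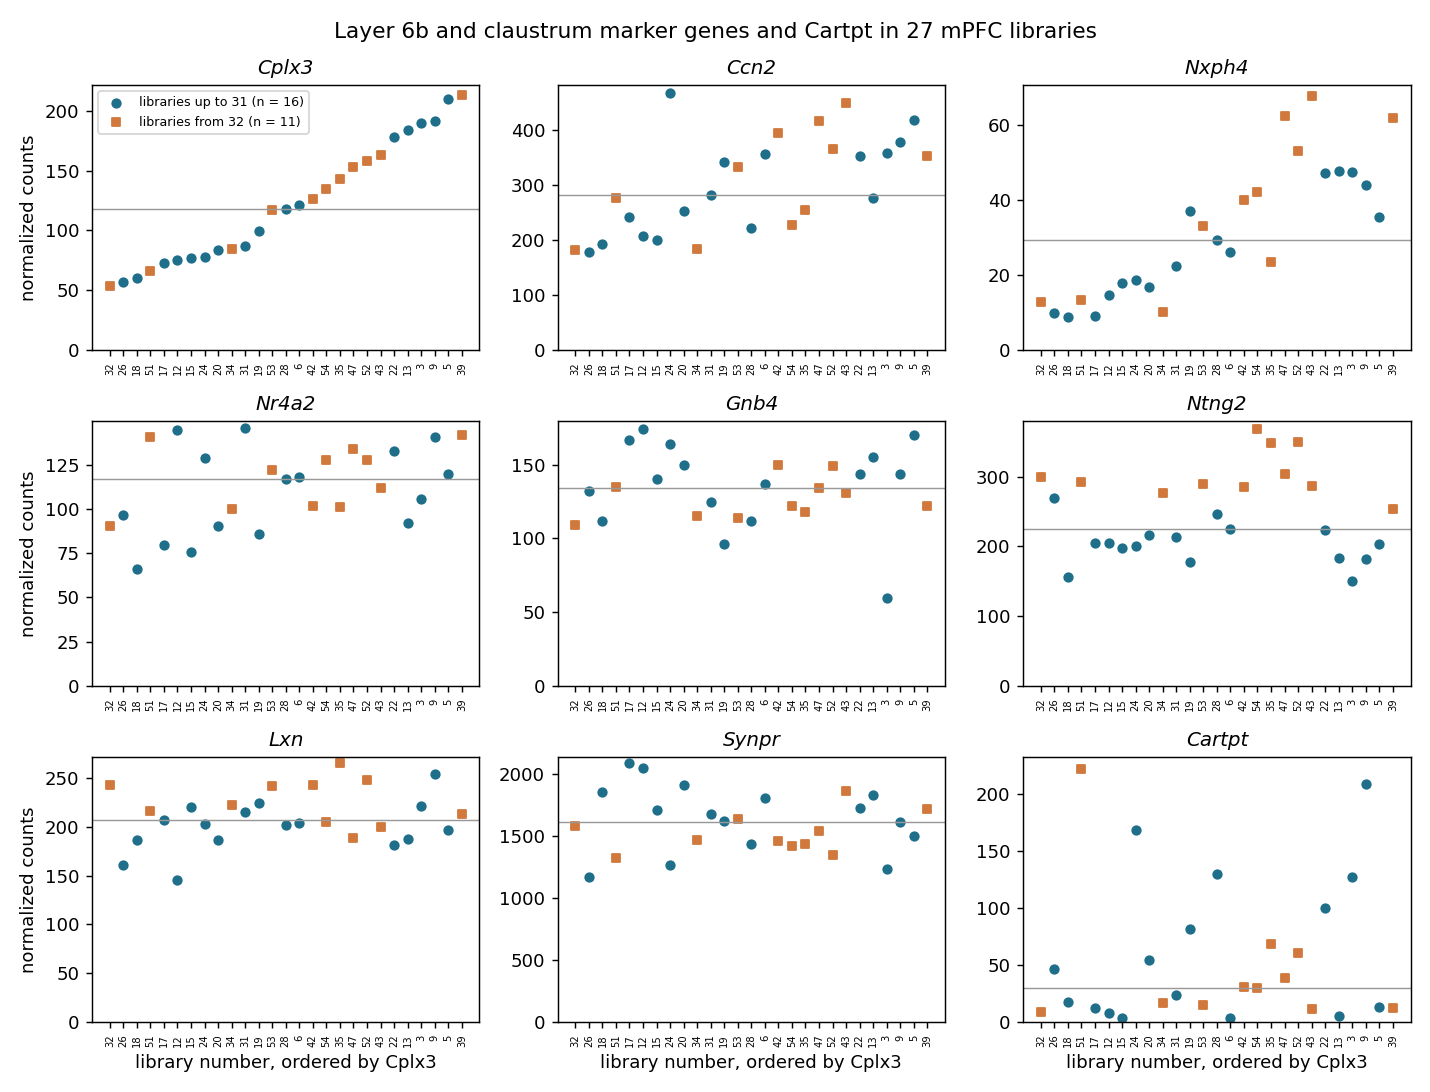
Normalized counts (linear axes from 0) of the 8 genes and Cartpt in each of the 27 libraries, ordered in every panel from the lowest to the highest Cplx3; the grey line is the median, circles are libraries up to 31 and squares libraries from 32. Nxph4 climbs along the Cplx3 order, Ccn2 does so with library 24 (468) as an exception, Ntng2 parts by library set (150 to 269 against 253 to 369), and Cartpt is high at both ends.

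The 3 layer 6b genes rose and fell together across rats. Cplx3 and Nxph4 had a Spearman's rho of 0.88 (permutation p = 1.0e-05, the smallest that 100000 permutations can give) and a Pearson's r of 0.893 (permutation p = 1.0e-05) over 27 libraries. The r was 0.879 without the 2 libraries farthest from the median Cplx3, and rho was 0.9 in the libraries up to 31 and 0.873 in those from 32. Rats high or low in 1 gene were mostly so in the other. Libraries 39, 47 and 43 held 214, 153 and 163 normalized counts of Cplx3 and 61.9, 62.4 and 67.7 of Nxph4, while libraries 26 and 18 held 56.9 and 60.2 of Cplx3 and 9.69 and 8.6 of Nxph4.

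Ccn2 followed both. Its rho was 0.704 with Nxph4 (permutation p = 6.0e-05) and 0.664 with Cplx3 (permutation p = 2.1e-04). Pearson's r was 0.737 with Nxph4 (permutation p = 1.0e-05) and 0.671 with Cplx3 (permutation p = 1.6e-04). The r with Nxph4 was 0.798 without libraries 24 and 43, the 2 farthest from the median Ccn2. The r with Cplx3 was 0.584 without libraries 32 and 26, the 2 farthest from the median Cplx3. Within the sets, Ccn2 and Nxph4 had a rho of 0.635 and 0.836, and Ccn2 and Cplx3 of 0.75 and 0.682. Library 24 was the exception, with the highest Ccn2 (468) and a Cplx3 of 77.8. It also had the highest summed level of 6 meningeal fibroblast genes (2997 normalized counts, median 706), among them collagens of the brain's coverings, and the part of these in the Ccn2 value was not tested. Leaving out each library in turn kept the 3 rho values between 0.624 and 0.909.

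**Figure D2:**
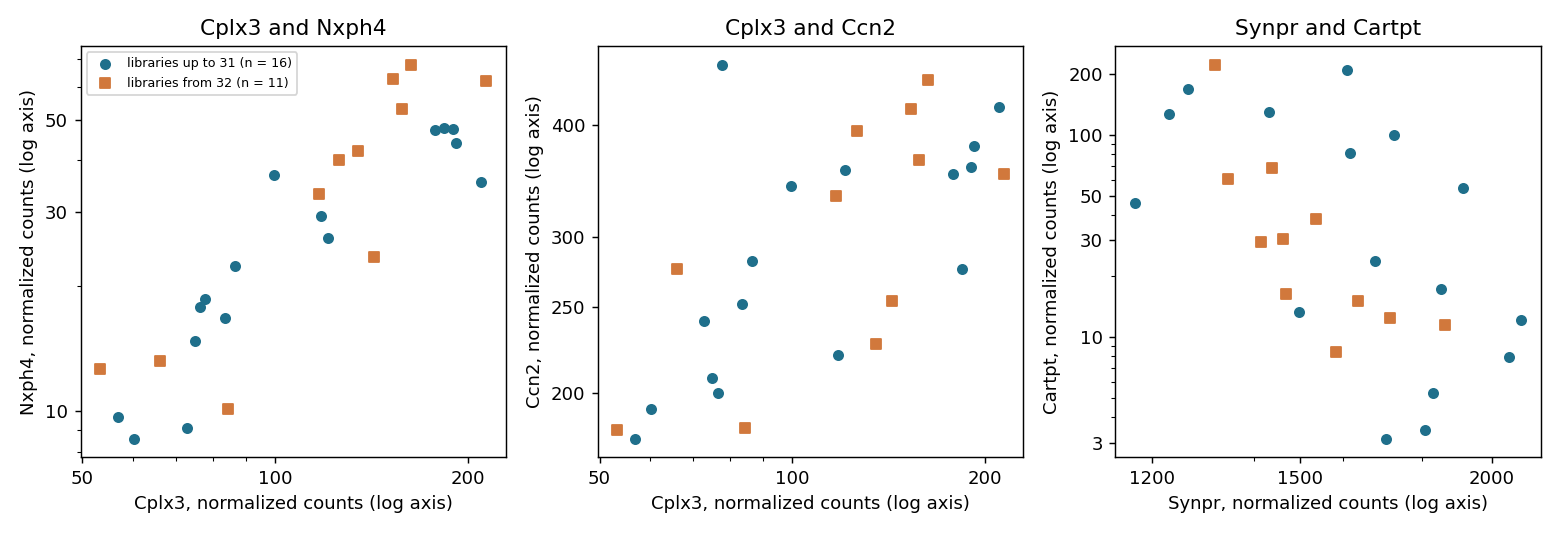
Levels in each library for Cplx3 with Nxph4, Cplx3 with Ccn2, and Synpr with Cartpt, in normalized counts on log axes; circles are libraries up to 31 and squares libraries from 32. The first 2 panels rise (rho 0.88 and 0.664), with library 24 at the top left of the second, and the third falls (rho -0.609).

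In fits across all genes the layer 6b trio was called in every direction. Each fit was edgeR's quasi-likelihood test with the log2 level of 1 gene as covariate, so that changes are log2 per SD of that gene's level, and p-values were adjusted by Benjamini-Hochberg over all 11291 other genes. With Cplx3, Nxph4 rose by 0.82 ± 0.085 (SE; adjusted p = 1.3e-06) and Ccn2 by 0.28 ± 0.065 (adjusted p = 0.021), 2 of the 7 other members, where 0.744% of all genes were called. With Nxph4, Cplx3 rose by 0.56 ± 0.056 (adjusted p = 8.2e-07) and Ccn2 by 0.32 ± 0.058 (adjusted p = 0.0095), also 2 of 7, at a background of 0.469%. With Ccn2, Nxph4 rose by 0.67 ± 0.12 (adjusted p = 0.02) and Cplx3 by 0.43 ± 0.089 (adjusted p = 0.044), 2 of 7 at a background of 0.0886%. The 2 calls with Ccn2 were the least firm. Without libraries 12 and 20 the adjusted p was 0.054 for Nxph4 and 0.11 for Cplx3, and without library 3 that for Cplx3 was 0.07, with the changes at 0.65, 0.42 and 0.42. Among 9760 genes averaging 50 normalized counts or more, Cplx3 had the highest rho with Nxph4, and Ccn2 was 18th. For Ccn2, Cplx3 was 15th of 9759, and for Cplx3, Ccn2 was 58th of 9759.

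The 5 claustrum markers did not form such a group. Their 10 pairs had a median rho of -0.0766, the 3 layer 6b pairs one of 0.704, and the 15 pairs between both groups one of 0.109. Of all 28 pairs, 17 were positive and 11 negative, 12 had unlike signs in the 2 library sets, and 6 had an unadjusted permutation p under 0.05, namely the 3 layer 6b pairs and Nr4a2 with each layer 6b gene. The lowest rho was that of Lxn and Synpr, at -0.353 (permutation p = 0.0722). Gnb4 and Lxn had a rho of -0.349 (permutation p = 0.0751). Within the sets these were -0.274 and -0.345 for Lxn and Synpr, and -0.379 and -0.155 for Gnb4 and Lxn.

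With Gnb4 as covariate 0 of the 7 other members were called while 28.9% of all genes were, with Ntng2 0 of 7 at a background of 27.2%, and with Synpr 0 of 7 at 22.9%. With the library set as a term the share was 7.01% with Ntng2, and without libraries 12 and 20 it was 10.9% with Synpr. Leaving out library 3 alone gave 8.36% with Gnb4. At an unadjusted p under 0.05, the fits of Gnb4, Ntng2 and Synpr over all 27 libraries held 0, 0 and 1 of 7 members. All genes at that cut in edgeR numbered 4496, 4370 and 4160 of 11291. The 1 member was Ntng2 with Synpr, a share below that of all genes. With Nr4a2 and Lxn edgeR called 0 of 7 members and 0% of all genes. At an unadjusted p under 0.05 it found 3 of 7 members and 624 genes with Nr4a2, and 0 of 7 and 933 genes with Lxn; no other tool was run on these fits. Without library 3, Synpr and Ntng2 were called in each other's fits (log2 change -0.11 and -0.17, adjusted p = 0.023 and 0.022 by edgeR), against adjusted p = 0.15 and 0.12 with it. Each was 1 of 7 members, below the background of 24.4% in both of those fits, and so no result about the members.

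Nr4a2 had intermediate values. Its rho was 0.457 with Ccn2 (permutation p = 0.0175), 0.403 with Nxph4 (permutation p = 0.0384) and 0.383 with Cplx3 (permutation p = 0.049), and Pearson's r was 0.478, 0.465 and 0.423 (permutation p = 0.0116, 0.0152 and 0.028). Within the sets rho was 0.497 and 0.455 with Ccn2, 0.324 and 0.555 with Nxph4, and 0.397 and 0.482 with Cplx3. Without the 2 libraries farthest from its median, r was 0.348, 0.345 and 0.292. None of these passed the adjustment over all genes in edgeR. With Ccn2 as covariate Nr4a2 changed by 0.14 ± 0.053 (95% interval 0.04 to 0.24, adjusted p = 0.57). With the 4 other claustrum markers its rho ran from -0.168 to 0.249.

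**Figure D3:**
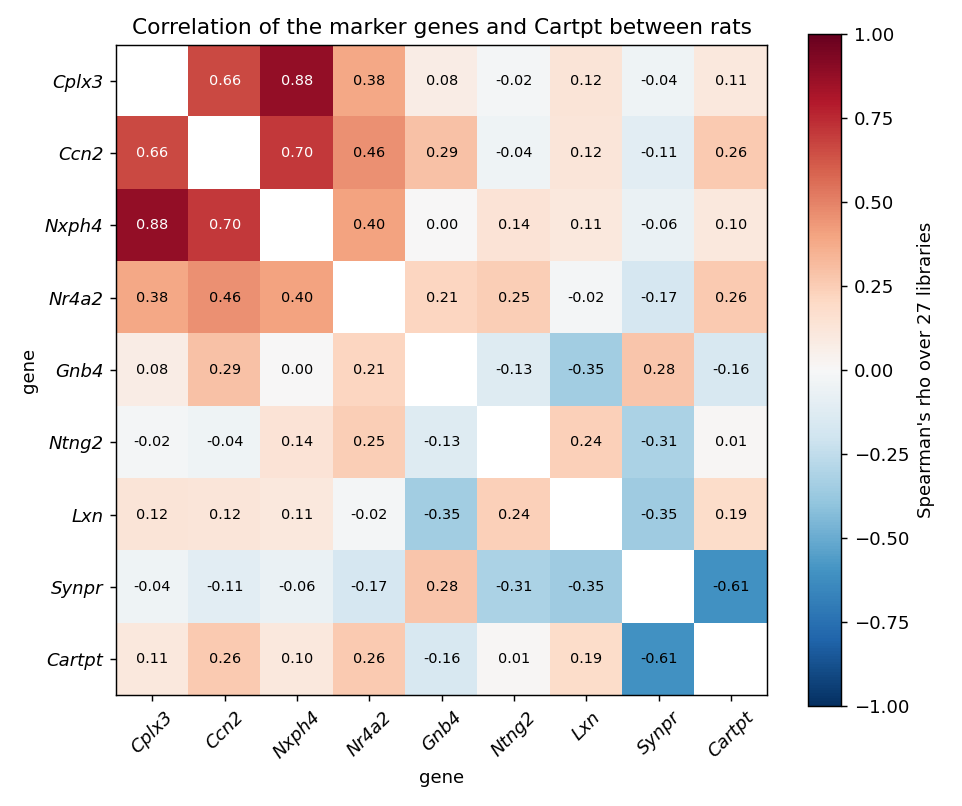
Spearman's rho over 27 libraries for every pair of the 8 genes and Cartpt, from -1 (blue) to 1 (red). The dark red block is Cplx3, Ccn2 and Nxph4 (0.66 to 0.88), Nr4a2 is pale red beside it, the other 4 genes show no block, and the darkest blue field is Synpr with Cartpt (-0.61).

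Against Cartpt, Synpr was the member that passed the test. Its level fell by 0.12 on the log2 scale per SD of Cartpt (SE 0.034; edgeR, adjusted p = 0.045), 1 of 8 members at a background of 2.08%, and DESeq2's Wald test gave an adjusted p of 0.017. The rho of Synpr and Cartpt was -0.609 (permutation p = 8.5e-04) and r was -0.588 (permutation p = 0.00131), -0.578 without the 2 libraries farthest from the median Synpr. Within the sets rho was -0.574 up to library 31 and -0.836 from 32. With Synpr as covariate Cartpt fell by 0.91 (SE 0.25; edgeR, adjusted p = 0.012), the same relation read from the other side.

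Some scores of cortical neurons moved with both genes in opposite directions, and others did not. The layer 5 score had a rho of 0.167 with Synpr and 0.011 with Cartpt (permutation p = 0.403 and 0.958). For the upper-layer score rho was 0.0269 and -0.181 (permutation p = 0.896 and 0.366). For the layer 6 corticothalamic score it was 0.432 and -0.349 (permutation p = 0.0254 and 0.0732). The excitatory neuron score had a rho of 0.517 with Synpr (permutation p = 0.00609; r 0.476, permutation p = 0.0116; r 0.402 without libraries 5 and 3; rho 0.712 and 0.7 in the sets). With Cartpt its rho was -0.496 (permutation p = 0.00921; r -0.453, permutation p = 0.0174; r -0.543 without them; rho -0.297 and -0.927 in the sets). The score of Lamp5 and Vip interneurons had a rho of 0.495 with Synpr (permutation p = 0.00904; r 0.49, permutation p = 0.00928; r 0.438 without libraries 5 and 24; rho 0.788 and 0.318 in the sets). With Cartpt it was -0.463 (permutation p = 0.0161; r -0.442, permutation p = 0.0213; r -0.479 without them; rho -0.491 and -0.427 in the sets). The part of these cells in the relation of Synpr and Cartpt was not tested.

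The edgeR call of Synpr depended on single libraries. It was kept in 11 of 27 fits that left out 1 library and lost in 16 (adjusted p 0.018 to 0.089), with the change between -0.14 and -0.11 in all 27. The 16 were libraries 3, 6, 12, 13, 15, 17, 19, 24, 28, 35, 39, 42, 43, 51, 52 and 53. The other 7 genes were not called with Cartpt. Their rho with Cartpt ran from -0.161 for Gnb4 to 0.262 for Nr4a2 and Ccn2, with 0.186 for Lxn, 0.106 for Cplx3, 0.104 for Nxph4 and 0.0128 for Ntng2. The interval was wide for the layer 6b genes: with Cartpt, Cplx3 changed by 0.052 per SD (95% interval -0.17 to 0.28, adjusted p = 0.82) and Nxph4 by 0.055 (-0.27 to 0.38, adjusted p = 0.87). The median change of the 8 members was 0.046, and that of all genes 0.006.

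Marker scores of other cells in the piece were tested next, each a mean z score of a gene list, with 81 relations of gene and score computed. In bulk tissue, fewer cells of a type and less RNA per cell cannot be told apart. The 3 layer 6b genes rose with the oligodendrocyte score, that is with the myelin genes of the white matter (edgeR over 11284 genes). Cplx3 rose by 0.52 ± 0.07 per SD (adjusted p = 1.2e-05), Nxph4 by 0.66 ± 0.13 (adjusted p = 0.0035) and Ccn2 by 0.27 ± 0.069 (adjusted p = 0.03), 3 of 8 members at a background of 1.75%. The median change of the 8 members was 0.086, and that of all genes 0.001. The rho with the score was 0.858 for Cplx3 (0.815 and 0.891 within the sets), 0.753 for Nxph4 (0.715 and 0.745) and 0.639 for Ccn2 (0.756 and 0.409). Pearson's r was 0.823, 0.728 and 0.61, and 0.808, 0.739 and 0.579 without libraries 3 and 32, the 2 farthest from the median score. The permutation p was 1.0e-05, 4.0e-05 and 4.9e-04 for rho and 1.0e-05, 2.0e-05 and 5.8e-04 for r. Without library 3 the 3 calls stood, at adjusted p = 1.2e-05, 0.0019 and 0.025, and without libraries 12 and 20 that of Ccn2 was at adjusted p = 0.058.

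Read from the genes' side, all 8 of 8 oligodendrocyte genes rose with Cplx3, by 0.23 to 0.36 per SD, among them Opalin (0.35 ± 0.046, edgeR adjusted p = 6.6e-05) and Mbp (0.36 ± 0.055, adjusted p = 0.00038). With Nxph4 all 8 rose too, by 0.20 to 0.32. With Ccn2 0 of 8 were called (0.17 to 0.26 per SD), in a fit that called few genes at all. None of the 8 genes was at 0 in any library, and Mbp ranged from 8109 to 33372 normalized counts.

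Layer 6 corticothalamic neurons, the excitatory cells above layer 6b, gave a related pattern. With the score of Foxp2, Tle4, Syt6, Rprm and Tbr1, Cplx3 rose by 0.37 ± 0.092 per SD (edgeR, adjusted p = 0.032) and Nxph4 by 0.56 ± 0.13 (adjusted p = 0.024), 2 of 8 members at a background of 1.36%. Ccn2 changed by 0.22 ± 0.073 (adjusted p = 0.11). Within the library sets the rho with this score was 0.482 and 0.891 for Cplx3 and 0.365 and 0.855 for Nxph4, with permutation p = 0.0599 and 0.165 in the set up to 31 and 5.5e-04 and 0.00149 in the set from 32. Of the 5 genes, Tle4 (0.14 ± 0.027, adjusted p = 0.005) and Rprm (0.26 ± 0.063, adjusted p = 0.047) rose with Cplx3, and Foxp2 (0.25 ± 0.056, adjusted p = 0.031) and Rprm (0.26 ± 0.061, adjusted p = 0.05 after rounding up from just below the threshold) rose with Nxph4. Summed over the list, the level ran from 1557 normalized counts in library 32 to 2873 in library 39, the libraries with the lowest and the highest Cplx3.

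The oligodendrocyte and layer 6 scores were themselves related (rho 0.579, permutation p = 0.0019; r 0.527, permutation p = 0.00458; 0.653 without libraries 3 and 32; rho 0.526 and 0.782 within the sets). They were therefore fitted together, a choice made after seeing the data. With the oligodendrocyte score as a term, Nxph4 still rose with Cplx3 (0.88 ± 0.15, adjusted p = 0.017), the only gene called (0.00886% of all genes), and Cplx3 was the only gene called with Nxph4 (0.39 ± 0.067, adjusted p = 0.033). The relations of Ccn2 with both were no longer called (adjusted p = 0.15 to 0.99). With the term, Ccn2 changed by 0.20 with Cplx3 and 0.26 with Nxph4, against 0.28 and 0.32 without it. With Ccn2 as covariate, Cplx3 changed by 0.19 and Nxph4 by 0.46, against 0.43 and 0.67. With the layer 6 score as a term, Cplx3 (0.42 ± 0.074, adjusted p = 0.00049) and Nxph4 (0.47 ± 0.14, adjusted p = 0.022) still rose with the oligodendrocyte score and Synpr fell by 0.16 (SE 0.034, adjusted p = 0.0035), 3 of 8 members at a background of 13.5%. Ccn2 then changed by 0.22 (adjusted p = 0.063), against 0.27 without the term.

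With the oligodendrocyte score as a term in the fit of the layer 6 score, Cplx3 changed by 0.16 (adjusted p = 0.11) and Nxph4 by 0.35 (adjusted p = 0.053), against 0.37 and 0.56 without the term, and neither was called. Synpr (0.16 ± 0.034, adjusted p = 0.0025) and Gnb4 (0.20 ± 0.056, adjusted p = 0.016) rose in that fit, 2 of 8 members, a share near the background of 21.1% and so no result about the members. Cartpt fell by 0.93 (SE 0.33, adjusted p = 0.045) in the same fit.

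**Figure D4:**
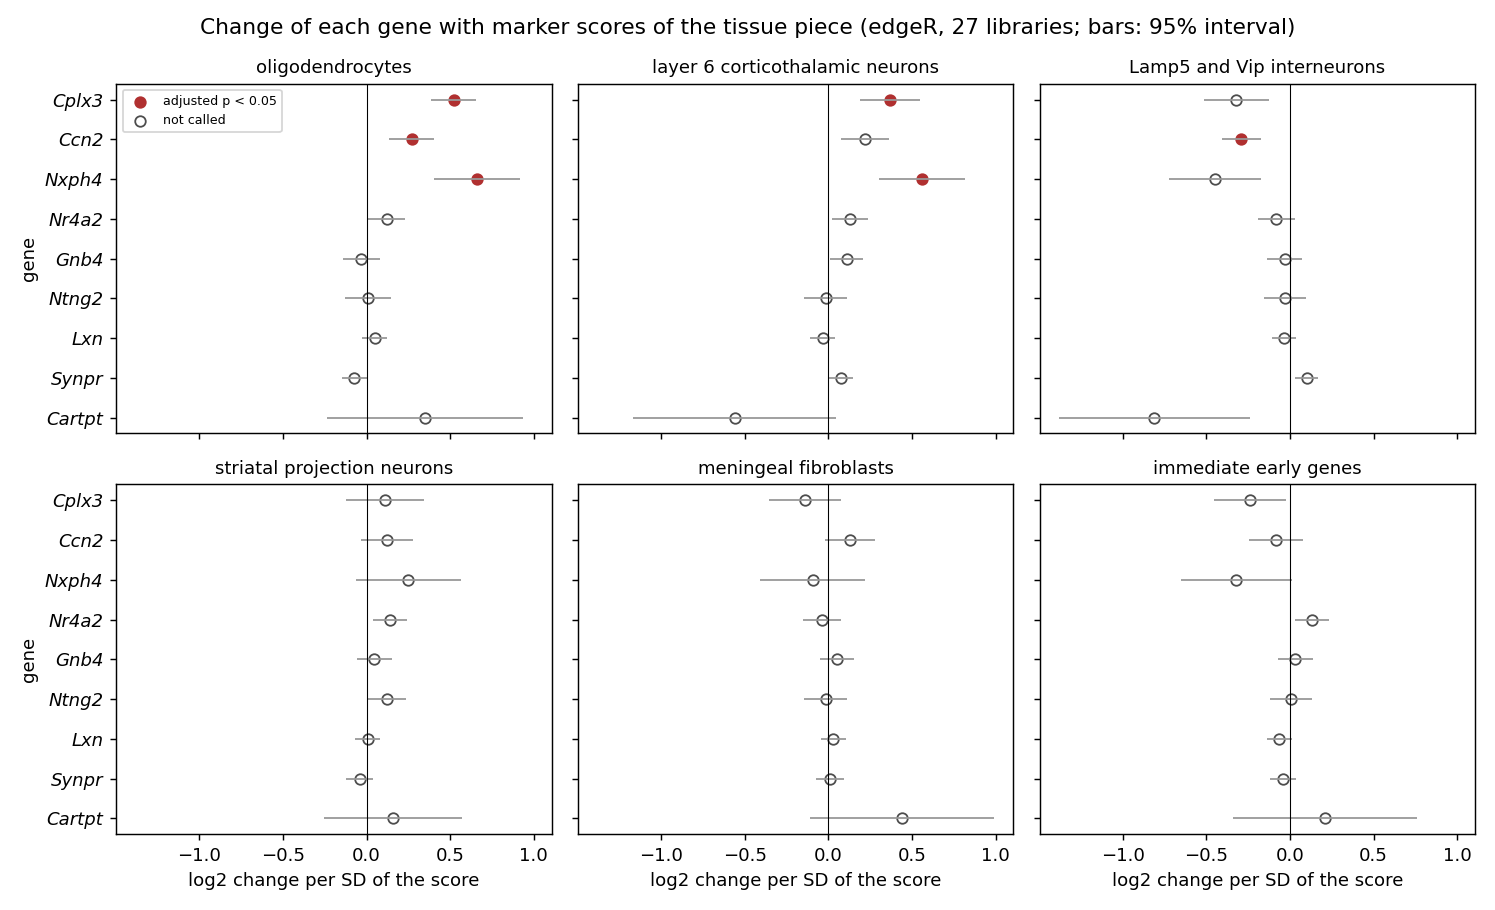
Log2 change of each gene per SD of 6 marker scores over 27 libraries (x axis), with 95% intervals as bars; filled red points passed edgeR's test at an adjusted p under 0.05, open points did not. Cplx3, Ccn2 and Nxph4 lie right of 0 for oligodendrocytes (0.52, 0.27 and 0.66) and left of it for Lamp5 and Vip interneurons, and no gene passed for the 3 scores of the lower row.

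With the score of Lamp5 and Vip interneurons (Lamp5, Reln, Vip, Calb2), cells found mostly in the upper layers, Ccn2 fell by 0.29 (SE 0.06; edgeR, adjusted p = 0.023), 1 of 8 members at a background of 0.283%. Cplx3 and Nxph4 changed by -0.32 and -0.45 (adjusted p = 0.13 and 0.14). Without libraries 12 and 20 the change of Ccn2 was -0.28 with an adjusted p of 0.083, and without library 3 it was -0.29 with 0.034. The rho of Ccn2 with this score was -0.705 (permutation p = 1.0e-04) and r was -0.673 (permutation p = 1.7e-04; -0.597 without the 2 farthest libraries), with rho at -0.685 and -0.618 in the sets.

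With the other 3 scores fitted in edgeR no member passed. The striatal projection neuron score called 0 of 8 at a background of 0.0177%, the meningeal fibroblast score 0 of 8 at 1.89%, and the immediate early gene score 0 of 8 at 0.0797%, and at an unadjusted p under 0.05 edgeR found 2, 0 and 2 of 8 members and 1422, 670 and 327 genes, with no other tool run on these fits. Ccn2, which meningeal and vascular cells can also express, changed by 0.13 per SD of the fibroblast score (95% interval -0.02 to 0.28, adjusted p = 1). Nr4a2 changed by 0.13 per SD of the immediate early gene score (95% interval 0.03 to 0.24, adjusted p = 1), with a rho of 0.482 (permutation p = 0.0113) and an r of 0.457 (permutation p = 0.0165) that was 0.345 without the 2 farthest libraries, and with rho at 0.579 and 0.373 in the sets. Nr4a2 also changed by 0.14 per SD of the striatal score (95% interval 0.04 to 0.23, adjusted p = 0.3). The layer 5, upper-layer and excitatory neuron scores were correlated only, not fitted across genes. With the upper-layer score Gnb4 had a rho of 0.309 (permutation p = 0.117) and an r of 0.634 (permutation p = 0.00358), and r was 0.0624 without libraries 3 and 19, so that relation rested on those libraries. Ntng2 had a rho of 0.468 with it (permutation p = 0.0148) and an r of 0.555 (permutation p = 0.00172), 0.367 without them, with rho at 0.641 and 0.00909 in the sets.

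Between the library sets Ntng2 was the member called. It stood at 204 ± 30.4 normalized counts (SD, n = 16) in libraries up to 31, from 150 to 269, and at 305 ± 35.4 (SD, n = 11) in those from 32, from 253 to 369. Both ranges overlapped only between 253 and 269. The log2 difference was 0.58 ± 0.072 (SE; edgeR, adjusted p = 4.8e-06), 1 of 8 members, a share no higher than the background of 18.5%. Lxn was next, at 200 ± 25.9 and 226 ± 23.9 normalized counts (edgeR adjusted p = 0.068, DESeq2 adjusted p = 0.049). The 3 layer 6b genes were not called between the sets, with Cplx3 at 118 ± 54.1 and 128 ± 46.8 normalized counts, Ccn2 at 295 ± 88.5 and 312 ± 93.5, and Nxph4 at 27 ± 14.4 and 38.1 ± 21.4. Depth, library set and any difference in cohort cannot be told apart.

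Other genes used for these cells were not called with the layer 6b genes. Of 5 further claustrum and layer 6b genes, Oprk1 (the kappa opioid receptor), Gng2 (a G protein gamma subunit) and Hcrtr2 (an orexin receptor) were measured, Smim32 was not analysed here, and Moxd1 had 0 counts in all 27 libraries. As Cux1 and Ndnf, which cortex expresses, also had 0 counts throughout, these zeros are not read as absence. With Cplx3, Ccn2, Nxph4, Nr4a2, Gnb4, Ntng2 and Lxn 0 of the 3 were called, and with Synpr 1 of 3, Gng2 (0.072 ± 0.017 per SD, edgeR adjusted p = 0.0036). Beside these counts the share of all genes called was 22.9% with Synpr, 28.9% with Gnb4, 27.2% with Ntng2, 0% with Nr4a2 and Lxn, and 0.744% or less with the layer 6b genes. Hcrtr2, at 24.3 ± 4.75 normalized counts (SD, n = 27), did not pass the dispersion test (adjusted p = 0.57). Oprk1 stood at 21.2 ± 6.92, and its SD on the log2 scale was 0.45.

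Genes of other cortical layers and cells were called with Gnb4, Ntng2 and Synpr, and none of any list with Nr4a2 or Lxn. With Gnb4, 2 of 3 upper-layer genes rose, Rasgrf2 (0.30 ± 0.06, edgeR adjusted p = 0.00045) and Cux2 (0.16 ± 0.051, adjusted p = 0.017), and 2 of 5 layer 6 genes, Syt6 (0.41 ± 0.088, adjusted p = 0.00099) and Tbr1 (0.17 ± 0.05, adjusted p = 0.011), at a list median of 0.03. That fit was sensitive to library 3, without which 943 of all genes were called in place of 3259. With Ntng2, 2 of 3 upper-layer genes rose, Otof (0.21 ± 0.035, adjusted p = 5.5e-05) and Cux2 (0.15 ± 0.048, adjusted p = 0.021). Of the layer 6 genes, 1 of 5 rose with Ntng2, Tbr1 (0.17 ± 0.045, adjusted p = 0.0043), while the list median was -0.05 and Rprm, Tle4 and Foxp2 were at -0.13, -0.075 and -0.054 (adjusted p = 0.2, 0.11 and 0.62). Otof and Tbr1 were also higher in the libraries from 32 (0.28 ± 0.086, adjusted p = 0.022, and 0.28 ± 0.091, adjusted p = 0.03). With Synpr, 2 of 4 Lamp5 and Vip interneuron genes rose, Reln (0.10 ± 0.029, edgeR adjusted p = 0.014) and Vip (0.12 ± 0.039, adjusted p = 0.022), while Lamp5 was at 0.066 and Calb2 at -0.11 (adjusted p = 0.18 and 0.061). Of the striatal genes, 2 of 8 fell with Synpr, Adora2a by 0.21 and Rgs9 by 0.17 (adjusted p = 0.015 and 0.049), at a list median of -0.05. All of these lie in fits in which a large share of genes was called, 28.9% with Gnb4, 27.2% with Ntng2 and 22.9% with Synpr, so counts such as 1 of 5 layer 6 genes with Ntng2 or 2 of 8 striatal genes with Synpr are at or near the background and no result about the lists. Striatal genes were also called with layer 6b genes, 1 of 8 rising with Cplx3 and 1 of 8 with Nxph4. The list medians were 0.00 and 0.08, at backgrounds of 0.744% and 0.469%. With the oligodendrocyte score 1 of the 8 striatal genes rose and 1 fell.

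The genes most like each member were ranked by rho over the 27 libraries, as a description, where they averaged 50 normalized counts or more. Among those most like Cplx3 were the oligodendrocyte gene Opalin (0.863) and the serine protease gene Prss12 (0.844). Most like Nxph4 were Cplx3 (0.88), Prss12 (0.865) and Fa2h (0.783), a fatty acid hydroxylase of myelin lipid synthesis. Ccn2 was most like Apod (0.808), a lipocalin, Rai14 (0.787) and Lpar1 (0.753), a lysophosphatidic acid receptor. Nr4a2 had lower values, with Inpp5f (0.693), Rai14 (0.672) and Gpr155 (0.651), and so had Lxn, with Rfc2 (0.655), Afmid (0.645) and Phyh (0.627).

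The other 3 claustrum markers had closer partners, none of them a member. Synpr was most like Ppp3cb (0.945), a calcineurin subunit, Gucy1b1 (0.928) and Dnajc6 (0.926). Ntng2 was most like Rtn4rl2 (0.937), a Nogo receptor relative, Neurod2 (0.914), a neuronal transcription factor, and Med15 (0.901). Gnb4 was most like Dyrk1a (0.851), a protein kinase, Cds2 (0.842) and Cmtm4 (0.83). Cartpt was most like Lgals3bp (0.839), Nnat (0.835), Cpne7 (0.764), Chka (0.744) and Sox9 (0.741).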

How the data were processed

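RNA of mPFC tissue from 27 rats was sequenced as single reads. The authors deposited raw read counts per gene, with no normalization. Trimmomatic, STAR and HTSeq are named in the submitters' processing notes without versions or roles; the genome build and strandedness are not given in the sources used here, so genes that overlap others or have close copies are uncertain. Gene IDs were named from RefSeq's gene table for GRCr8, which gave 27825 of 36865 rows a symbol (99.5% of counts); 436 rows of genes split over several loci were left out of symbol matching.

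Levels are counts divided by DESeq2 (1.42.0) median-of-ratios size factors. Correlations used log2(normalized count + 1), a scale on which low genes change too little, and two-sided permutation tests of 100000 permutations for 36 relations of the 8 genes and Cartpt. Fits used edgeR (4.0.16) with filterByExpr, TMM and the quasi-likelihood test, a standardized level or marker score as covariate, and Benjamini-Hochberg adjustment over all genes tested except the covariate gene or list, at a threshold of 0.05. Genes averaging 10 counts or more entered the dispersion test. Scripts ran in R 4.3.3 and Python 3.11.15 (pandas 2.3.3, numpy 2.4.6, matplotlib 3.10.9, scipy 1.17.1). Both tests were tested on simulated counts with 200 changed genes. The edgeR fit found 195 genes made to follow Cartpt (log2 0.5 per SD) among 11292, with 7 false calls, and the dispersion test found 195 overdispersed genes among 11730, with 9 false calls. Counts for the edgeR fit were drawn independently for each gene, at changes larger in size than the -0.12 of Synpr with Cartpt. Its recovery and false calls therefore need not carry over to small changes or to genes that move together.

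The members, marker lists and library sets were chosen with earlier results of these data known. The genes named are the members, Cartpt, the marker lists and, by rank of rho, the 3 genes most like each member and the 5 most like Cartpt. Smim32, Hs3st4 and Ogn were not analysed here. Some genes of the lists and ranks are not reported here. Reads are not independent molecules, so depth floors and counting noise cover counting error only. Alternatives were TMM, DESeq2 or total-count scaling, no filter on low counts, a pseudocount of 0.1, the library set as a term, DESeq2's Wald test and leaving out libraries.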

Additional observations from a re-analysis of the deposited data

How the results depend on the processing

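No paired analysis was possible because all libraries form 1 group. The fits with both scores, those without libraries 12 and 20 or library 3, and the interaction with the library set were chosen after seeing the data. The rho values of the 3 layer 6b pairs and of Synpr with Cartpt kept their sign and their side of 0.05 in all 8 alternatives run on each. Among them, the pseudocount of 0.1 cannot change ranks, so it could not move rho. The lowest and the highest value with 1 library left out were counted as separate alternatives. The calls of Nxph4 with Cplx3 and of Cplx3 and Nxph4 with the oligodendrocyte score stood in each alternative fit. The 36 relations of the 8 genes and Cartpt, each read in both directions, gave 72 tests of a difference between the library sets. Of these, 0 passed (interaction in edgeR, lowest adjusted p = 0.48, and 5 at an unadjusted p under 0.05). With each covariate these fits called 0 of 11291 genes, so a difference between the sets could be missed. In the libraries from 32 the median rho was 0.836 for the layer 6b pairs and 0.3 for the pairs between both groups, and that with Cartpt turned to 0.545 for Gnb4, -0.0273 for Cplx3 and -0.1 for Nxph4. That of Ntng2 with Cartpt turned to -0.0794 up to 31 and ran from -0.0639 to 0.105 with 1 library left out. The causes of the changes here were not tested.

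Counts of genes called moved more. With the library set as a term, 792 genes were called with Ntng2, 135 with Cplx3, 693 with Cartpt, and 400, 497 and 83 with the oligodendrocyte, layer 6 and interneuron scores. Without libraries 12 and 20 the counts were 1234 with Synpr, 1 with Ccn2, and 70, 3 and 5 with the layer 6, interneuron and immediate early gene scores, and 0 members were called with Ccn2 and with the interneuron score. Without library 3, 943 genes were called with Gnb4 and 131 with Cartpt, and 1 member each with Ntng2, Synpr and Ccn2 and 0 with Cartpt. The share of all genes called there was 24.4% with Ntng2, 24.4% with Synpr, 0.0798% with Ccn2 and 1.16% with Cartpt. The calls with Ntng2 and Synpr are thus no result about the members. With the oligodendrocyte score as a term the counts were 1 gene each with Cplx3 and Nxph4, in each case 1 member, 42 genes and 0 members with Ccn2, and 2380 genes with the layer 6 score. With the layer 6 score as a term 1527 were called with the oligodendrocyte score. Without the filter, 10, 371 and 20 genes were called with the striatal, fibroblast and interneuron scores. DESeq2's Wald test called 612 genes with Cartpt and 2 members between the sets. Between the sets it called 18.8% of all genes (2381 of 12647), so those 2 calls are no result about the members. Leaving out 1 library gave 68 (library 13) to 713 genes (library 9) with Cartpt and 0 to 1 members. Without the 2 libraries farthest from the median Cartpt, 15 and 51, 0 members were called at a background of 1.78% (Synpr at adjusted p = 0.064 by edgeR).

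The lowest libraries of Nxph4 and Cartpt rest on 7 and 2 reads, and over all libraries counting took the largest share of variance in Lxn (27.8%), Gnb4 (21.9%) and Nr4a2 (21.7%). Levels were not compared between genes.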
